A study of Mus musculus with 12 samples.

Results

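The Slc25 genes encode mitochondrial carriers, and 46 of the 22180 genes measured here had an Slc25a symbol. These 46 are called the family below. Members of the carrier family with other symbols, such as Ucp1, are not among them. Members were taken by name: each transcript cluster of the array that the platform annotation assigned to a single gene with a symbol of the form Slc25a followed by a number. Each of the 46 genes had 1 such cluster, so no choice between clusters was needed. The cells were E14, a mouse embryonic stem cell line, transduced with a control short hairpin RNA (shCT) or with a hairpin against LOXL2 (shLOXL2), a lysyl oxidase family member. Each construct was sampled without RA at day 0 and with RA at day 1, so the 12 arrays form 4 groups of 3. The labels give only RA, read here as retinoic acid. All groups carried a hairpin, and untransduced cells were not analysed here. With 1 construct on each side, loss of LOXL2 and other effects of its hairpin cannot be told apart. The word "knockdown" below stands for shLOXL2 against shCT and covers both. Since day 1 has no group without RA, the effect of RA and that of 1 day in culture cannot be told apart, and "with RA" covers both below. The study's title asks which genes depend on LOXL2 while RA drives differentiation.

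Mitochondrial carriers are small proteins that mostly sit in the inner mitochondrial membrane and exchange metabolites between the cytosol and the matrix. They move ATP and ADP, phosphate, carboxylic acids, amino acids, nucleotides, cofactors and acylcarnitines, which link glycolysis, respiration, fatty acid oxidation and biosynthesis. Embryonic stem cells rely strongly on glycolysis, and mitochondrial metabolism is remodelled as they differentiate.

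Each value is a log2 signal per cluster as deposited, and signals of different genes are not set against each other, since probes differ in brightness. Array medians lay between 4.58 and 4.68, and pairs of arrays correlated at 0.939 to 0.985. The small number of arrays limits the precision. The labels do not say whether arrays of a group stem from separate cultures, so the p-values reflect the spread among these samples alone, and that spread may be technical. The 2 clusters that cover Loxl2, the targeted gene, are shared with a predicted gene and stood at 60.0% and 65.0% of control on average of both RA states (limma adjusted p = 0.28 and 0.543). The first stood at 67.5% without and 53.4% with RA, and the second at 89.6% without RA (log2 difference -0.16 ± 0.22) and 47.2% with RA. All 10 mouse ES cell markers examined lay above the array median in each group, but so did all 7 primitive endoderm markers. Of 7 fibroblast and of 6 trophectoderm markers 4 or 5 did, so lying above the median does not tell the cell type. Of the 46 carriers, 32 lay above the median on all 12 arrays. Slc25a2, Slc25a41, Slc25a53 and Slc25a54 lay below it on all 12. No background level was set here, so the difference of a dim gene may be understated where part of its signal is background.

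Within the groups, 1 axis held 49.4% of the variance of all genes, and replicate 3 of both shCT groups and replicate 1 of both shLOXL2 groups lay high on it. Results that rest on these 4 arrays are given with and without them.

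Most carriers, like most genes, differed little between the groups. RA left 42 of the 46 within 0.5 log2 units in shCT cells (91.3%, beside 92.3% of all genes) and 41 in shLOXL2 cells (89.1%, beside 92.6%). Knockdown left 45 of them within 0.5 units without RA (97.8%, beside 98.6%) and 44 with RA (95.7%, beside 99%). The genes past the threshold (limma adjusted p under 0.05 over all genes) were Slc25a21, Slc25a24, Slc25a4, Slc25a31 and Slc25a12 for RA, and Slc25a20 for knockdown. The promoters of the 3 ADP/ATP and ATP-Mg carriers that rose with RA, and of the carrier that was higher with knockdown, are printed here to show what these genes do and do not share. Each is the 250 bases before the gene's start in RefSeq's promoter table (GRCm38.p6), written 5′ to 3′ on the gene's strand. Capitals mark exact matches to the E-box CACGTG, the ETS motif CCGGAAG and the CCAAT box.
Slc25a4, chr8:46211063-46211312, minus strand: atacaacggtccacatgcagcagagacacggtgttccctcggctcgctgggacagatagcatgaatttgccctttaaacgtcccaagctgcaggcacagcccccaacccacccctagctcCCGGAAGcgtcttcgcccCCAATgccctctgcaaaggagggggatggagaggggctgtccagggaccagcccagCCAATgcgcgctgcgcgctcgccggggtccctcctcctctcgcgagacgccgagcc
Slc25a24, chr3:109122899-109123148, plus strand: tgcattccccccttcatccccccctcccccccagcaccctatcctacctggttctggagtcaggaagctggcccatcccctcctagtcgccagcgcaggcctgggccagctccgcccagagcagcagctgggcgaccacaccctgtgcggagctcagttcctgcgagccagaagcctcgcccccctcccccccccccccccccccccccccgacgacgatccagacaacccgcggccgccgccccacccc
Slc25a31, chr3:40708621-40708870, plus strand: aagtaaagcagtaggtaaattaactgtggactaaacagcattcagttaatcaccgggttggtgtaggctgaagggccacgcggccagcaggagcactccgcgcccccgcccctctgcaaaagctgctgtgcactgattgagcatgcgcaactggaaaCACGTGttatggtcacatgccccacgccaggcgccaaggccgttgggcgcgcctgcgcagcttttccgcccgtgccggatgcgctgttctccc
Slc25a20, chr9:108661886-108662135, plus strand: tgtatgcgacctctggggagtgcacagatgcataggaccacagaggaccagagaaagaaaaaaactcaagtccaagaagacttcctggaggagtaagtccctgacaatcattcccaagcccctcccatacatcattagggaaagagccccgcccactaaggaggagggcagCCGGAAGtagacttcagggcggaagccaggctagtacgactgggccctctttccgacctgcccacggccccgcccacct

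The Slc25a4 window held an ETS motif at 130 to 124 bases before the start and CCAAT at 112 to 108 and at 56 to 52. The Slc25a31 window held CACGTG at 93 to 88 bases, the Slc25a20 window CCGGAAG at 79 to 73, and the Slc25a24 window none of the motifs searched. Since the Slc25a24 window held none, no motif could be common to the 3 printed windows of carriers that rose. Slc25a21, which also rose, had a window with TATAAA and another with CCAAT, each on the opposite strand. The window of Slc25a12, which fell, held no searched motif. Of the 46 carriers 36 had an entry in the table, and some had several starts, so these 36 genes gave 46 windows. With both strands searched for each motif, CCAAT was found in 21 of the 46 windows (45.7%) and in 33.8% of 32851 windows of all genes. The ETS motif was found in 6 windows (13% against 6.91%) and CACGTG in 8 (17.4% against 6.02%). By gene these were 18 carriers for CCAAT, 6 for the ETS motif and 7 for CACGTG. Windows of 1 gene can overlap and hold the same site, so windows are not independent. AGGTCA, the half-site of nuclear receptors, was found in 4 (8.7% against 14%), TATAAA in 2 (4.35% against 12.4%) and the E2F motif TTCCCGCC in 1 (2.17% against 1.86%). A direct repeat of AGGTCA spaced as retinoic acid receptors bind it was in none of the 46 windows, and in 0.00913% of all windows for each of the 2 spacings searched (DR5 and DR2). The repeat of AGTTCA (DR5) was also in none, against 0.0213%. The carriers' windows had a median GC content of 57.4% against 52.4%, and GC-rich windows hold more chance matches to GC-rich motifs. A match describes the letters of a window and is not a binding site, and the lack of a match says nothing of the factor.

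In shCT cells RA raised 3 of the 46 carriers past the threshold (6.52%) and lowered none. Of all 22180 genes 4.25% passed in this comparison, 2.16% upward and 2.09% downward. With a block for each number within constructs 4 of the 46 carriers passed in shCT cells, among them the falling Slc25a12. So did 1800 of the 22180 genes. In shLOXL2 cells 4 carriers rose (8.7%) and none fell, beside 3.46% of all genes, 2.05% upward and 1.41% downward. Deviations of same-numbered arrays from their group means correlated at 0.0394 to 0.631 between the shCT groups and at 0.216 to 0.558 between the shLOXL2 groups. With a block for each number within constructs 4 carriers rose and 1 fell in shLOXL2 cells (10.9%). Beside them 7.32% of all genes passed, 4.44% upward and 2.88% downward. On average of both constructs 4 rose and 1 fell (10.9%), beside 10.3% of all genes, 5.52% upward and 4.8% downward. The share of carriers called was thus close to that of all genes for the average. The median change of the 46 genes was 0.0070 in shCT and 0.0082 in shLOXL2 cells on the log2 scale, beside 0.0010 and -0.010 over all genes. In bulk cells, fewer cells that express a gene and less RNA per cell cannot be told apart.

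**Figure D1:**
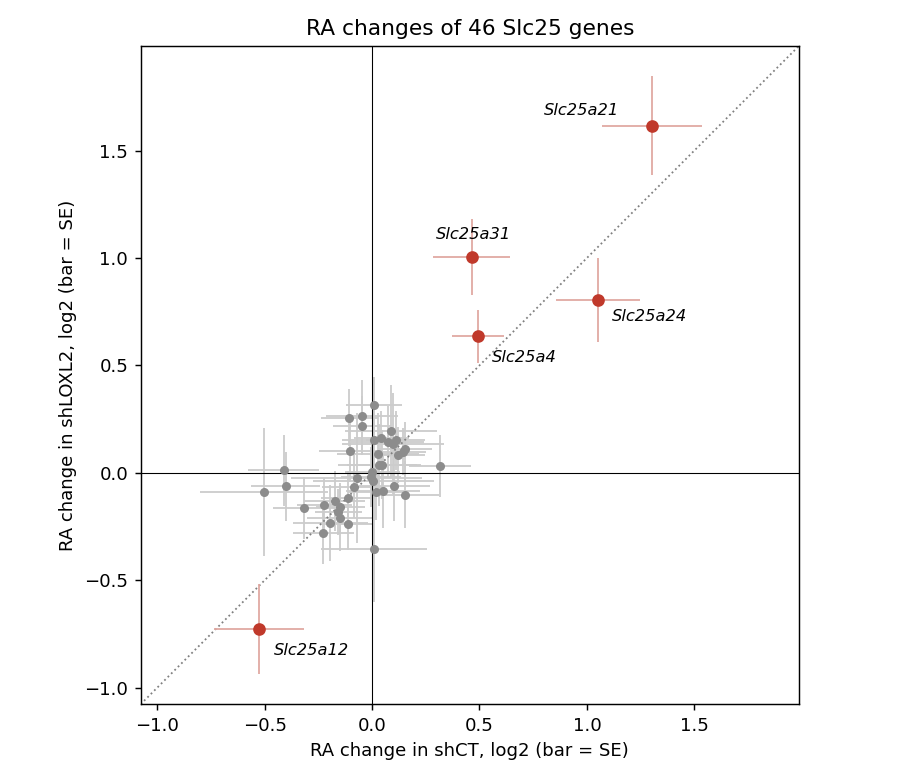
RA changes of the 46 Slc25 genes on the log2 scale, with shCT cells on the horizontal and shLOXL2 cells on the vertical axis. Points are genes, bars are standard errors of the limma fit and the dotted line marks equal changes; Slc25a21, Slc25a24, Slc25a4 and Slc25a31 lie up and to the right, Slc25a12 lies lowest, and most genes lie near 0.

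The adenine nucleotide and phosphate carriers held most of the rises. Of 8 measured, 2 rose in shCT cells, 3 in shLOXL2 cells and 3 on average, and none fell. Of all genes 2.16%, 2.05% and 5.52% rose in these comparisons. The median change of the 8 carriers was near 0, at 0.017, 0.021 and 0.019. Slc25a24 encodes a calcium-regulated carrier that exchanges ATP-Mg for phosphate and so sets the adenine nucleotide pool of the matrix. Its log2 signals in shCT cells were 4.63, 5.20 and 5.37 without RA and 6.18, 5.96 and 6.20 with RA. In shLOXL2 cells they were 5.13, 5.07 and 5.60 without RA and 6.28, 5.98 and 5.96 with RA. All arrays with RA lay above all without RA in both constructs. Slc25a24 rose by 1.05 ± 0.20 log2 units (SE) in shCT cells (limma adjusted p = 0.00707) and by 0.81 ± 0.20 in shLOXL2 cells (adjusted p = 0.038). The rise on average was 0.93 ± 0.14 (adjusted p = 0.000613), or 1.90-fold. The call in shLOXL2 cells was lost on leaving out any of 9 single arrays, with changes from 0.70 to 0.97 and an adjusted p of up to 0.17. These were replicate 2 of shCT without RA, replicates 1 and 2 of shLOXL2 without RA, and all 6 arrays with RA. It was also lost without the 4 arrays high on the axis (0.64, adjusted p = 0.179), after a further quantile normalization (adjusted p = 0.0686), after centring (0.0661) and with the replicate number as a block (0.0522).

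Slc25a4 encodes the ADP/ATP carrier that prevails in heart and skeletal muscle. In shCT cells its log2 signals were 7.96, 7.97 and 8.18 without RA and 8.64, 8.42 and 8.52 with RA. The shLOXL2 arrays gave 8.14, 8.02 and 8.0 without RA and 8.57, 8.67 and 8.83 with RA. The arrays with and without RA did not overlap in either construct. The rise was 0.49 ± 0.12 in shCT (limma adjusted p = 0.0376) and 0.64 ± 0.12 in shLOXL2 cells (adjusted p = 0.00925), and 0.56 ± 0.09 on average (adjusted p = 0.000776). The call in shCT cells was lost on leaving out any of 8 single arrays, with changes from 0.44 to 0.56 and an adjusted p of up to 0.152. These were replicates 1 and 2 of shCT without RA, all 3 arrays of shCT with RA, replicates 2 and 3 of shLOXL2 without RA and replicate 2 of shLOXL2 with RA. It was also lost without the 4 arrays high on the axis (adjusted p = 0.0614), after centring (0.0871), with only the groups compared (0.103) and with the replicate block (0.0655). In shLOXL2 cells the call was lost without replicate 3 with RA (0.57, adjusted p = 0.0588).

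Slc25a31 encodes the ADP/ATP carrier known from the male germ line, where it is needed for meiosis. Its log2 signals in shCT cells were 4.62, 4.41 and 4.68 without RA and 5.09, 5.13 and 4.87 with RA. The values of shLOXL2 cells were 5.30, 4.84 and 4.59 without RA and 6.16, 5.72 and 5.87 with RA. Arrays with RA lay above those without RA within each construct, and the 3 shLOXL2 arrays with RA were the highest of the 12. RA raised it by 1.0 ± 0.18 in shLOXL2 cells (limma adjusted p = 0.00545) and by 0.73 ± 0.13 on average (adjusted p = 0.00182). In shCT cells the difference was 0.46 ± 0.18 and did not pass (adjusted p = 0.197). There it passed with array weights (adjusted p = 0.00202), which raised the RA calls over all genes in shCT cells from 943 to 5224. The difference between these responses was 0.54 ± 0.25 (95% interval -0.00061 to 1.08), with an unadjusted p of 0.0502 and an adjusted p of 1, so a differing response was not shown.

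Slc25a5, the widely expressed ADP/ATP carrier of growing cells, did not share this direction. In shCT cells its signals were 10.80, 10.90 and 10.76 without RA and 10.71, 10.68 and 10.60 with RA. In shLOXL2 cells they were 10.81, 10.94 and 10.82 without RA and 10.62, 10.67 and 10.72 with RA. The arrays with RA lay below those without in both constructs, but the difference was small, at -0.16 ± 0.11 and -0.18 ± 0.11, and -0.17 ± 0.08 on average (limma adjusted p = 0.206). A difference between the responses of Slc25a4 and Slc25a5 was not tested, nor was the specificity of the probes among these close relatives. The phosphate carrier Slc25a3 stood at -0.15 ± 0.08 on average and Slc25a23, an ATP-Mg carrier like Slc25a24, at -0.19 ± 0.09 (adjusted p = 0.29 and 0.251). Slc25a25, a further ATP-Mg carrier, lay close to 0 with a standard error of 0.09.

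**Figure D2:**
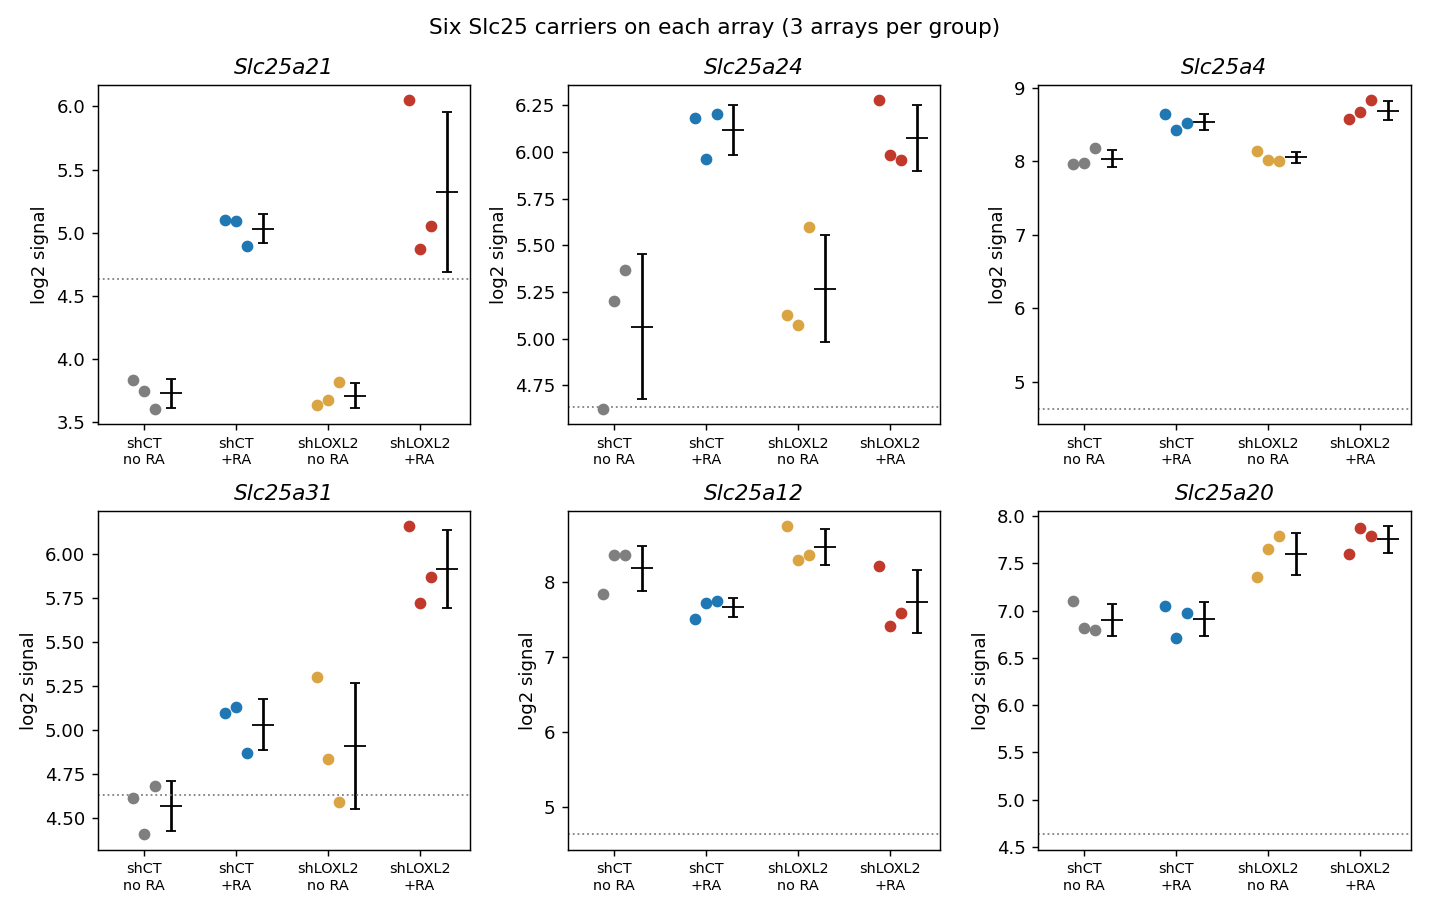
Log2 signals of Slc25a21, Slc25a24, Slc25a4, Slc25a31, Slc25a12 and Slc25a20 on the 12 arrays, by group. Points are single arrays, bars show the group mean and SD (n = 3), the dotted line marks the median of all values (4.63) and each panel has its own vertical range; the first 4 genes are higher with RA in both constructs, Slc25a12 is lower, and Slc25a20 is higher in shLOXL2 than in shCT cells with and without RA.

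Among 4 di- and tricarboxylate carriers, Slc25a21 alone passed, and it had the largest rise of the family in each construct. It encodes the oxodicarboxylate carrier, which moves intermediates of lysine and tryptophan breakdown. Its log2 signals in shCT cells were 3.83, 3.74 and 3.60 without RA and 5.10, 5.10 and 4.90 with RA. In shLOXL2 cells they were 3.63, 3.67 and 3.82 without RA and 6.05, 4.87 and 5.05 with RA. The groups did not overlap, all arrays without RA lay below the array median, and replicate 1 of shLOXL2 with RA stood about 1 unit above the other 2 of its group. Slc25a21 rose by 1.30 ± 0.23 in shCT (limma adjusted p = 0.00545) and by 1.62 ± 0.23 in shLOXL2 cells (adjusted p = 0.00129). The average was 1.46 ± 0.16 (adjusted p = 5.88e-05), or 2.75-fold. Without that replicate the rise in shLOXL2 cells was 1.25 and still passed. The citrate carrier Slc25a1 (0.02 ± 0.12 on average), the dicarboxylate carrier Slc25a10 (-0.04 ± 0.09) and the oxoglutarate carrier Slc25a11 (0.13 ± 0.09) did not pass.

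Of 9 amino acid carriers 1 fell on average and none passed within a construct in the fit with equal weights and no block. Slc25a12, known as aralar, exports aspartate in exchange for glutamate and is part of the malate-aspartate shuttle that carries reducing equivalents into mitochondria. Its log2 signals in shCT cells were 7.84, 8.36 and 8.36 without RA and 7.51, 7.72 and 7.75 with RA. The shLOXL2 signals were 8.74, 8.30 and 8.35 without RA and 8.21, 7.41 and 7.59 with RA. Each array with RA lay below each array without RA of its construct, though the gap was narrow in both. The difference was -0.52 ± 0.21 in shCT (limma adjusted p = 0.22, or 0.00263 with array weights) and -0.73 ± 0.21 in shLOXL2 cells (adjusted p = 0.0856), and it fell by 0.63 ± 0.15 on average (adjusted p = 0.0149). The fit with a block for each number within constructs called the fall in both (adjusted p = 0.0244 in shCT and 0.00518 in shLOXL2 cells). In shLOXL2 cells it was also called without the 4 arrays high on the axis (-0.82, adjusted p = 0.0476). There it was called without replicate 1 with RA too (-0.96, adjusted p = 0.0184). Its sister carrier Slc25a13, known as citrin, stood at 0.10 ± 0.09 on average (adjusted p = 0.585). The glutamate carrier Slc25a22 stood at -0.25 ± 0.10 and the ornithine carrier Slc25a15 at 0.12 ± 0.08, neither past the threshold (adjusted p = 0.143 and 0.414).

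The other roles held no RA call in the fit with equal weights, and with array weights 3 of their carriers passed in each construct. Among 8 measured carriers of nucleotides and cofactors, Slc25a33 and Slc25a32 were lowest in shCT cells, at -0.41 ± 0.17 and -0.40 ± 0.16 (limma adjusted p = 0.226 and 0.223). Both passed with array weights (0.00744 and 0.00236), as did Slc25a32 without replicate 1 of shCT without RA (-0.58, adjusted p = 0.0444). Slc25a33 imports pyrimidine nucleotides and Slc25a32 is the mitochondrial folate and FAD carrier. In shLOXL2 cells they stood at 0.01 ± 0.17 and -0.06 ± 0.16. Among 4 iron and glutathione carriers, Slc25a40, which takes up glutathione with its relative Slc25a39, stood at -0.50 ± 0.30 in shCT (adjusted p = 0.454) and at -0.09 ± 0.30 in shLOXL2 cells. The mitoferrins Slc25a28 and Slc25a37, which import iron, stood at -0.01 ± 0.10 and 0.08 ± 0.09 on average. Of the 3 uncoupling-protein-like carriers, Slc25a27 had the lowest value, -0.35 ± 0.25 in shLOXL2 cells (adjusted p = 0.582). The 9 other carriers ranged on average from -0.21 to 0.17, and Slc25a20, the acylcarnitine carrier, stood at 0.08 ± 0.11.

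By the arrays themselves, 11 carriers did not overlap between RA states in shCT cells, 4 higher and 7 lower with RA. That is 23.9% of the family, beside 21.2% of all genes, 10.7% higher and 10.5% lower. In shLOXL2 cells 12 did not overlap (26.1%), 9 higher and 3 lower, beside 19.6% of all genes, 10.3% higher and 9.32% lower. In both constructs at once, Slc25a4, Slc25a21, Slc25a24 and Slc25a31 were higher on every array with RA and Slc25a5 and Slc25a12 lower. These 6 are 13.0% of the family, beside 9% of all genes, 4.67% higher and 4.33% lower. The RA difference had the same sign in both constructs for 35 of the 46 carriers (76.1%), beside 67.8% of all genes. The 2 comparisons share no arrays.

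Some markers of other cell states moved with RA in the same cells. The mean log2 level of 10 ES cell markers ran from 8.83 to 9.03 over the shCT arrays without RA and from 8.45 to 8.58 with RA, and 6 of the 10 fell on average. In shLOXL2 cells it ran from 8.92 to 9.04 and from 8.42 to 8.63. Of 7 primitive endoderm markers Gata6 rose, in each construct and on average. Of 6 trophectoderm markers Cdx2 and Krt18 rose on average, and of 5 two-cell-like markers Zscan4c did. No marker of the latter lists passed within a construct. Over all genes 5.52% rose and 4.8% fell on average. The trophectoderm mean ran from 5.06 to 5.31 in shCT cells without RA and from 5.40 to 5.63 with RA, and in shLOXL2 cells from 5.06 to 5.34 and from 5.41 to 5.57. The two-cell-like mean ran from 4.92 to 5.36 and from 5.56 to 5.81 in shCT cells, and from 4.91 to 6.08 and from 5.53 to 6.82 in shLOXL2 cells. The primitive endoderm mean overlapped between RA states in shCT cells (6.01 to 7.07 and 6.30 to 7.17) and not in shLOXL2 cells (6.17 to 6.21 and 6.56 to 6.71). Fibroblast markers lay from 4.25 to 4.73 on all arrays, and none of the 7 measured passed. The part of these markers in the carriers' changes was not tested.

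No carrier passed the limma threshold for a different RA response in the 2 constructs, and neither did any other gene. None of the 46 reached an unadjusted p under 0.05, beside 2.94% of all genes. Besides Slc25a31, the largest positive difference was that of Slc25a33 (0.42 ± 0.24). The largest negative ones were those of Slc25a27 (-0.36 ± 0.35) and Slc25a47, an orphan carrier known from liver (-0.29 ± 0.20). For Slc25a21 the 95% interval ran from -0.39 to 1.02, for Slc25a24 from -0.84 to 0.35, for Slc25a4 from -0.23 to 0.52 and for Slc25a12 from -0.84 to 0.44. Differences within these intervals are not excluded.

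Between the constructs 1 carrier differed past the threshold on average of both RA states, Slc25a20. Of all genes 0.0541% passed there, 0.0361% upward. Within either RA state 0 of 46 carriers passed in limma, as did 0% of all genes. At an unadjusted p under 0.05 there were 3 carriers without RA (6.52%, beside 4.68% of all genes) and 4 with RA (8.7%, beside 4.96%). The median knockdown difference of the 46 was 0.037 without and 0.061 with RA, beside 0.0060 and 0.0062 over all genes. The 2 knockdown comparisons share no arrays, and the difference had the same sign in both for 31 of 46 carriers (67.4%), beside 56.7% of all genes.

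Slc25a20, the carnitine-acylcarnitine carrier, brings fatty acids bound to carnitine into the matrix for oxidation. Without RA its log2 signals were 7.10, 6.81 and 6.79 in shCT and 7.35, 7.65 and 7.79 in shLOXL2 cells. With RA they were 7.05, 6.71 and 6.98 in shCT and 7.60, 7.87 and 7.79 in shLOXL2 cells. All 6 shLOXL2 arrays lay above all 6 shCT arrays. The difference was 0.70 ± 0.15 without RA (limma adjusted p = 0.49) and 0.84 ± 0.15 with RA (adjusted p = 0.318). Neither was past the threshold except with array weights (adjusted p = 0.00153 and 0.0238). These weights raised the calls over all genes from 0 to 2875 without RA and from 0 to 9 with RA. On average Slc25a20 was higher in shLOXL2 cells by 0.77 ± 0.11 (limma adjusted p = 0.0172, 95% interval 0.54 to 1.0), or 1.70-fold. The size held when single arrays were left out (0.72 to 0.83), but the call was lost without any of 8 of them, with an adjusted p of up to 0.0835. These were replicate 2 of shCT without RA, all 3 arrays of shCT with RA, and, with as without RA, replicates 2 and 3 of shLOXL2. It was also lost with the replicate number as a block (adjusted p = 0.0721) and with a random block within constructs (0.0574), and kept without the 4 arrays high on the axis. RA did not move it past the threshold in either construct, with 0.01 ± 0.15 in shCT and 0.16 ± 0.15 in shLOXL2 cells.

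**Figure D3:**
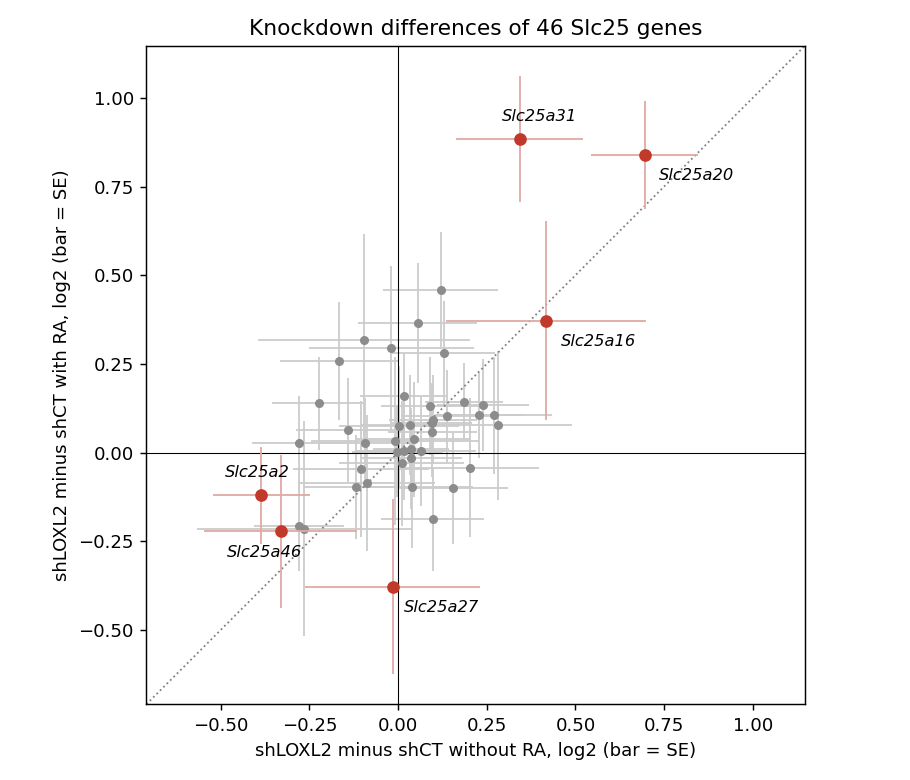
Knockdown differences (shLOXL2 minus shCT) of the 46 Slc25 genes on the log2 scale, without RA on the horizontal and with RA on the vertical axis. Points are genes, bars are standard errors of the limma fit and the dotted line marks equal differences; Slc25a20 (0.70 and 0.84) and Slc25a31 (0.34 and 0.88) lie farthest up, and the other genes lie within 0.5 units on both axes.

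Slc25a31 came next. Its difference was 0.34 ± 0.18 without RA, where the arrays of both constructs overlapped, and 0.88 ± 0.18 with RA, where they did not (limma adjusted p = 1 and 0.583, and 0.0307 without RA with array weights). On average it was 0.61 ± 0.13 (95% interval 0.34 to 0.88, adjusted p = 0.135), short of the threshold. It passed with array weights (adjusted p = 0.00385), which raised the calls over all genes from 12 to 1002, and over the other alternatives its adjusted p reached 0.41. Slc25a4 and Slc25a5, its relatives, stood at 0.09 ± 0.09 and 0.02 ± 0.08 on average.

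Without RA the lowest knockdown values belonged to Slc25a2, an ornithine carrier, and Slc25a46, which resides in the outer membrane and acts in mitochondrial fission and lipid transfer. Slc25a2 differed by -0.39 ± 0.14 without RA (limma adjusted p = 0.886, or 0.0167 with array weights). Its arrays without RA did not overlap, at 4.27, 4.11 and 4.22 in shCT and 3.99, 3.63 and 3.81 in shLOXL2 cells, all below the array median. Slc25a46 differed by -0.33 ± 0.21 without and -0.22 ± 0.21 with RA, and Slc25a27, the lowest with RA, by -0.38 ± 0.25 there. Slc25a16, a carrier linked to coenzyme A transport, differed by 0.42 ± 0.28 without RA. This rested on replicate 1 of shCT, at 6.01 against 7.24 and 7.33 in the other 2, and without it the difference was -0.0074. By the arrays alone 7 carriers did not overlap between constructs without RA (15.2%, beside 8.23% of all genes) and 4 with RA (8.7%, beside 12.5%). In both states, and in the same direction, these were Slc25a15 and Slc25a20 (4.35%, beside 1.53%). Slc25a15 was named after its values were seen: its difference was 0.19 ± 0.11 without and 0.14 ± 0.11 with RA.

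**Figure D4:**
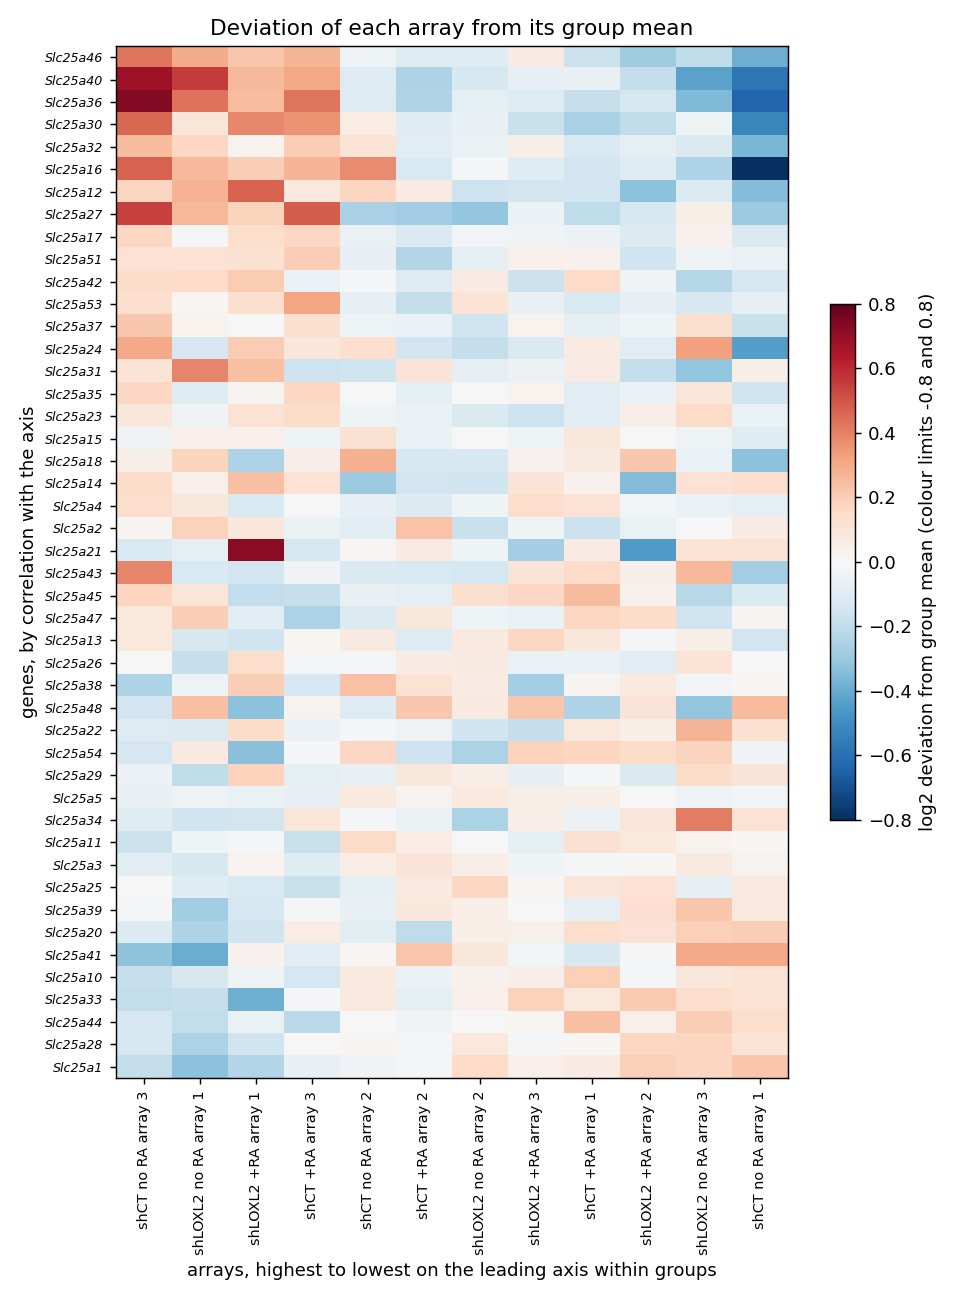
Deviations of the 46 Slc25 genes (rows) from their group means on the 12 arrays (columns, from highest to lowest on the axis within groups), in log2 units as given by the colour scale. The upper rows, with Slc25a46 and Slc25a40, turn from above to below the group mean from left to right and the lowest rows, with Slc25a1, the other way; the 4 columns on the left are the arrays that lie high on the axis.

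The carriers also varied within groups, along the axis shared with all genes. The deviations of 10 of them correlated with it beyond 0.8 in size (21.7%, beside 22.1% of all genes), as a description over 12 arrays that share the axis by construction. Slc25a46, Slc25a40, Slc25a36 (each r = 0.95), Slc25a30 (0.91), Slc25a32 (0.89), Slc25a16 (0.89) and Slc25a12 (0.88) lay on one side. Slc25a1 (-0.93), Slc25a28 (-0.84) and Slc25a44 (-0.80) lay on the other. On the 4 arrays high on the axis Slc25a40 was 0.45 above its group means. Slc25a20 correlated at -0.74, Slc25a24 at 0.51, Slc25a31 at 0.50, Slc25a4 at 0.27 and Slc25a21 at 0.20. Without the 4 high arrays the RA calls were Slc25a21 and Slc25a24 in shCT cells, and Slc25a4, Slc25a12, Slc25a21 and Slc25a31 in shLOXL2 cells. The 5 calls for RA on average and that of Slc25a20 for knockdown were the same genes as with all arrays.

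Of the genes measured next to the 6 called carriers in RefSeq's order, Arih2 alone passed for RA on average and none for knockdown on average. Beside Slc25a20, Arih2 stood at 0.35 ± 0.10 and Prkar2a at 0.26 ± 0.10 for knockdown on average (limma adjusted p = 0.394 and 0.579). Arih2 rose with RA on average (0.45 ± 0.10, adjusted p = 0.0125), while Slc25a20 did not pass. Pax9, next to Slc25a21, stood at 0.13 ± 0.11 with RA, and Slc25a54 and Vav3, next to Slc25a24, at 0.11 ± 0.12 and 0.30 ± 0.11. Hspa4l and Intu, next to Slc25a31, stood at 0.59 ± 0.18 (adjusted p = 0.0551) and 0.27 ± 0.13. Cfap97 and Helt, next to Slc25a4, stood at 0.48 ± 0.19 (adjusted p = 0.136) and -0.20 ± 0.11, and Dync1i2 and Hat1, next to Slc25a12, at 0.19 ± 0.12 and 0.11 ± 0.12.

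Of 54 genes measured in lists of related function, 7 passed for RA on average (13%, beside 10.3% of all genes). For RA within a construct, 4 passed in shCT cells (7.41%, beside 4.25%) and 1 in shLOXL2 cells (1.85%, beside 3.46%). Of 13 genes of the import machinery that delivers carriers to the inner membrane, Timm9, a small chaperone of the intermembrane space, fell in shCT cells (-0.56 ± 0.14, limma adjusted p = 0.0444) and on average (-0.35 ± 0.10). Of 15 other mitochondrial transporters measured, Ucp1, the uncoupling protein, rose in shCT cells (0.53 ± 0.13, adjusted p = 0.033) and Sfxn1, a serine transporter, fell (-0.50 ± 0.11, adjusted p = 0.0184). Both also passed on average, at 0.40 ± 0.09 and -0.38 ± 0.08. The shCT calls of Timm9, Ucp1 and Sfxn1 were lost for 8, 6 and 5 of 12 arrays left out singly. Each was also lost without the 4 arrays high on the axis and with only the groups compared. Mpc1, which forms the mitochondrial pyruvate carrier with Mpc2, was the 1 gene of that list to rise with knockdown on average (1.03 ± 0.15, adjusted p = 0.0172). Its call was lost with a random block within constructs and on leaving out any of 7 single arrays (0.93 to 1.13, adjusted p up to 0.0855). These were all 3 arrays of shCT with RA and, in both shLOXL2 groups, replicates 2 and 3.

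The carnitine shuttle, in which Slc25a20 works between the palmitoyltransferases, held no call among 6 genes measured. Cpt1a, which forms acylcarnitines at the outer membrane, stood at 0.53 ± 0.19 for knockdown on average (limma adjusted p = 0.542), and Cpt2, which releases the acyl groups in the matrix, at -0.06 ± 0.09. Of 8 enzymes of the malate-aspartate and citrate routes, Glud1, glutamate dehydrogenase, rose with RA on average (0.29 ± 0.08, adjusted p = 0.0382). Of 7 one-carbon genes measured, 3 fell on average. These were Shmt1, the cytosolic serine hydroxymethyltransferase (-0.56 ± 0.08, adjusted p = 0.000328), Mthfd1l (-0.37 ± 0.11, 0.041) and Mthfd2l (-0.34 ± 0.09, 0.0273). Beside them, 4.8% of all genes fell on average. Shmt1 also fell within each construct. Its call in shLOXL2 cells was lost for 3 of 12 arrays left out singly and without the 4 arrays high on the axis. On leaving out single arrays the average calls of Timm9, Glud1 and Mthfd1l were each lost for 10 of 12 arrays and that of Mthfd2l for 7. Those of Shmt1, Ucp1 and Sfxn1 were lost for none. Without the 4 arrays high on the axis the average calls of Timm9, Sfxn1, Glud1 and Mthfd2l were lost. Of 5 genes of iron-sulfur and haem synthesis measured none passed, and the smallest RA p on average was that of Lyrm4, an assembly factor (-0.22 ± 0.08, adjusted p = 0.127).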

How the data were processed

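RNA from 12 samples of E14 cells was extracted with Trizol and 100 ng of each labelled for Affymetrix whole-transcript arrays, per the labels' protocols. The authors deposited 1 log2 signal per cluster and array. The submitters' processing notes list RMA, limma and R 3.1.1 without a role. Normalization between arrays removes shifts common to most genes. Of 41345 clusters, 23521 had 1 gene, 1814 several and 16010 were unnamed here.

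Group means were fitted in R 4.3.3 with limma 3.58.1 and statmod 1.5.0 over all 12 arrays without a filter, with 7 contrasts. P-values were Benjamini-Hochberg adjusted over 22180 genes, with a threshold of 0.05. Those of the 2 Loxl2 clusters came from a separate fit and were adjusted over all 41345 clusters. The fit was tested on simulated data. The members and lists were chosen with earlier results of these data known. Named genes are those past the threshold in any contrast, the 2 largest rises and falls per contrast, Slc25a20, Slc25a31, Slc25a4 and Slc25a5, the called or smallest-p genes of each list, and examples of a role or count.

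Replicate numbers come from the labels, which state no pairing. Residuals of same-numbered arrays correlated at 0.363, 0.0394 and 0.631 between the shCT groups and at 0.558, 0.248 and 0.216 between the shLOXL2 groups. The main fit held no block. In the fit with a block for each number within constructs, the arrays of both constructs were blocked.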

Additional observations from a re-analysis of the deposited data

How the results depend on the processing

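The counts of carriers past the threshold were recomputed with a replicate block, a variance trend, a filter on dim genes, a further quantile normalization, arrays centred on their medians, array weights, the groups compared alone and each array left out. The fixed block within constructs and the fit that leaves out the 4 high arrays were chosen after seeing the data. With array weights, which ran from 0.332 to 6.26, the counts for RA were 8 in shCT, 8 in shLOXL2 and 13 on average. For knockdown they were 6 without RA, 1 with RA and 2 on average. Over all genes these weights called, in that order, 5224, 2663, 5975, 2875, 9 and 1002. With equal weights the calls over all genes were 943, 768, 2289, 0, 0 and 12. With the replicate number as a block, and with a random block within constructs (consensus correlation 0.323), the count for knockdown on average was 0. With 1 array left out the count ran from 2 to 3 for RA in shCT, from 2 to 4 for RA in shLOXL2, and from 0 to 1 for knockdown on average, and it was 5 each time for RA on average. The difference of RA responses had 0 carriers in each alternative run for it, which leaves out the fixed block and the groups compared alone. The dim filter left Slc25a21 untested. The cause of these shifts was not tested.

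Centring moved the median RA change of all genes in shCT cells from 0.0010 to -0.10. It turned the RA difference of Slc25a20 in shCT cells to -0.092, the fit without the 4 high arrays to -0.075, and leaving out single arrays gave -0.059 to 0.11. The difference of RA responses of Slc25a5 was 0.025 after centring and ran from -0.067 to 0.013 with single arrays left out. Its knockdown difference with RA was -0.0044 after a further quantile normalization and ran from -0.023 to 0.035, and without RA from -0.0038 to 0.076. The knockdown difference without RA ran from -0.028 to 0.085 for Slc25a4 and from -0.0074 to 0.65 for Slc25a16. None of these passed the threshold in limma. Values of dim carriers are limited by the lack of a background level.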
